A study of Danio rerio with 2 samples.

Results

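Aquaporins form the channels through which water, and in some members glycerol and other small uncharged solutes, crosses cell membranes. Their transcripts were compared between RNA sequencing libraries of adult zebrafish liver and of whole zebrafish embryos. A feature of the gene tables was taken as an aquaporin where its name starts with aqp and a digit, which held for 9 of 27098 features. A further 6 features carry older names but are aquaporins by their current RefSeq symbol, among them those of aqp1a.1, aqp7, aqp10b and aqp12. The lens aquaporins mipa and mipb, also known as aquaporin 0, were described with them, so 17 features were followed in all. Genes are called here by their current symbols.

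The adult liver library was made from livers dissected from adult zebrafish, and the embryo library from samples of 15 whole zebrafish embryos each. Adults and embryos alike had spent 48 h with human hepatotoxicants, 9 in number: valproic acid, tetracycline, paraquat, thioacetamide, amiodarone, acetaminophen, chlorpromazine, 17a-ethynylestradiol and cyclosporine A. Equal amounts of RNA from every sample were mixed into 1 liver pool and 1 embryo pool, so no value belongs to a single compound, fish or clutch. Strain, sex and age of the fish, and any use of unexposed fish in the pools, were not given in the sources used here, and an unexposed library was not analysed here. Each pool is 1 library, with 13020149 counts for liver and 11408727 for embryo, so differences lack a replicate check and carry no p-value. Intervals in brackets are exact 95% intervals that cover counting error only. Most hepatocyte markers went with the liver label: 9 of 10 were higher in adult liver and none in whole embryos, by the rule of size given below. Of all features measured by that rule, 3.35% were higher in adult liver and 30.9% in whole embryos. The 1 marker in neither was fgb, with 30 liver counts and 27 embryo counts. Summed over the list, the markers had 59173 CPM (counts scaled to a common library size) in adult liver and 1886 CPM in whole embryos. The most abundant were transferrin tfa, with 293081 liver counts and 10915 embryo counts, the fatty acid carrier fabp10a (fabp10 in the files), with 146402 liver counts and 2773 embryo counts, and ceruloplasmin cp, with 97661 liver counts and 481 embryo counts.

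The family falls into groups by what passes through the pore. Classical water channels, such as aquaporins 0, 1 and 4, carry mainly water. Aquaglyceroporins (aquaporins 3, 7, 9 and 10) also carry glycerol, and mammalian hepatocytes take up glycerol through aquaporin 9 for the making of glucose. Aquaporin 8 also passes ammonia and hydrogen peroxide and is found in mammalian hepatocytes, and aquaporins 11 and 12 are distant relatives found inside cells, aquaporin 12 being known in mammals from the acinar cells of the pancreas. In the gene models of the files exon number went only partly with the group. All aquaglyceroporins but aqp9a had 6 exons. The 3 aquaporin-8 genes and aqp4 had 5, aqp1a.1, mipa, mipb and aqp12 had 4, and aqp11 had 3. The model of aqp9a was 1 exon of 720 bases and that of aqp1a.2 was 1 exon of 379 bases, whereas the other members had 943 to 2844 bases of exon. No protein or promoter sequence was used here.

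The liver pool held an aquaporin repertoire dominated by 1 gene, and the embryo pool a broad one. In RPKM, the authors' measure of exon reads scaled by exon length and library total, aqp12 made up 84.5% of the summed family signal in adult liver and 8.45% in whole embryos. The next genes of the liver pool were aqp8a.1 with 7.95%, aqp10a with 3.22%, aqp11 with 1.94% and aqp7 with 1.34%. In the embryo pool aqp3a led with 19.2%, followed by mipb with 15.0% and aqp1a.1 with 12.5%, and 5 more genes had 7.85% to 9.69% each: aqp8a.2, aqp8a.1, mipa, aqp12 and aqp9b. By group, the unorthodox aquaporins 11 and 12 took 86.4% in adult liver and 12.1% in whole embryos. The classical water channels showed the reverse, with 0.429% in adult liver and 37.0% in whole embryos, where the lens genes mipa and mipb held 23.8%. Aquaglyceroporins had 5.01% in adult liver and 30.7% in whole embryos, and aquaporin-8 genes had 8.16% in adult liver and 20.2% in whole embryos.

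**Figure D1:**
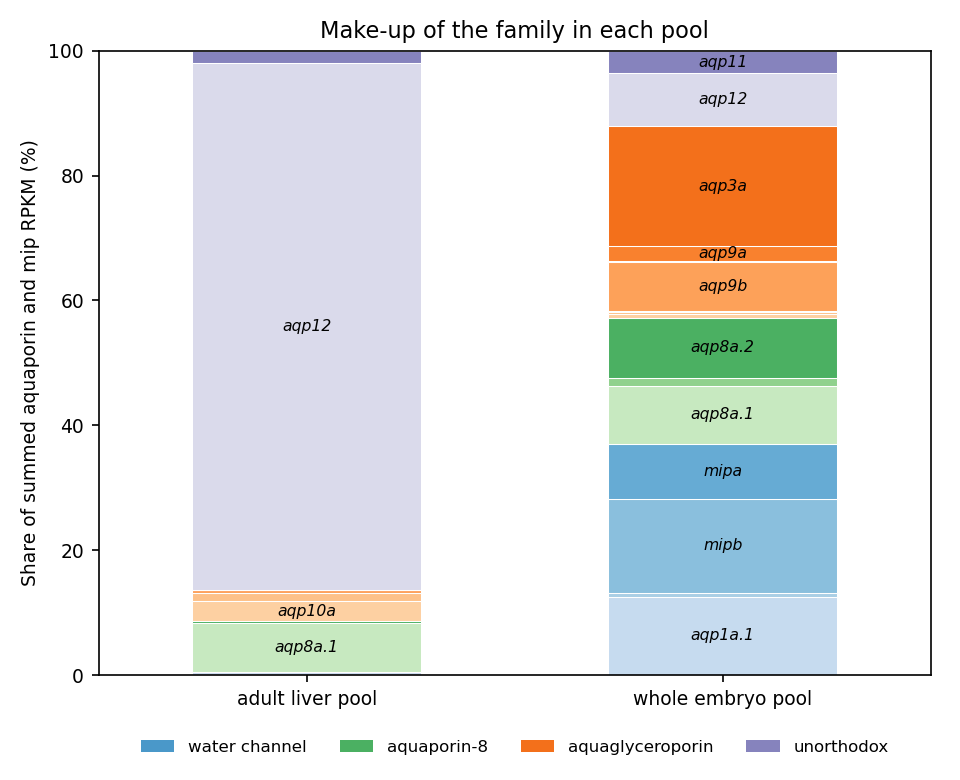
Share of the summed RPKM of the 17 aquaporin and mip features taken by each gene (vertical axis, percent) in the adult liver pool (left) and the whole embryo pool (right), coloured by group, with genes above about 2% named. The liver bar is mostly aqp12 at 84.5%, and no gene of the embryo bar exceeds 19.2%.

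Within adult liver the order of levels was steep. The RPKM of aqp12 was 648.5 (635 to 662), rank 180 of all 27098 features, and that of aqp8a.1 was 61.1 (56.9 to 65.4). Then came aqp10a at 24.7 (22.5 to 27.1), aqp11 at 14.9 (13.0 to 17.1) and aqp7 at 10.3 (9.22 to 11.5), each apart from its neighbour by counting error. The levels of aqp1a.1 at 3.27 (2.42 to 4.31) and aqp9b at 3.25 (2.47 to 4.19) could not be told apart. Below aqp8a.2 at 1.61 RPKM, the genes aqp9a, aqp10b and mipa rested on 1, 2 and 1 liver counts and also overlapped. The other 6 features, aqp3a, aqp3b, aqp4, aqp8b, aqp1a.2 and mipb, had 0 liver counts. With 3 counts as the limit for a count of 0, their level was at most 0.230 CPM. The exact 95% interval of a count of 0 reaches 0.283 CPM.

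Within whole embryos levels ran from 90.4 to 0.651 RPKM among genes with any read, with a run of 5 genes at similar levels. The top gene aqp3a had 90.4 RPKM (86.3 to 94.6), rank 708 of all features, mipb 70.7 (67.4 to 74.1) and aqp1a.1 59.0 (54.99 to 63.3). The next 5 genes, from aqp8a.2 at 45.7 (42.1 to 49.5) down to aqp9b at 37.0 (34.1 to 40.1), each overlapped the next. The ends of this run, aqp8a.2 and aqp9b, did not overlap. After aqp11 at 17.1 (14.9 to 19.6), aqp9a at 11.1 (8.92 to 13.6) and aqp8b at 5.77 (4.45 to 7.35), the genes aqp4, aqp10a, aqp7, aqp10b and aqp3b lay between 0.651 and 3.20 RPKM. Thus aqp10a and aqp7, the 2 aquaglyceroporins highest in adult liver, were near the bottom of the embryo pool. No read was assigned to aqp1a.2 in whole embryos either, where the same limit is 0.263 CPM.

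**Figure D2:**
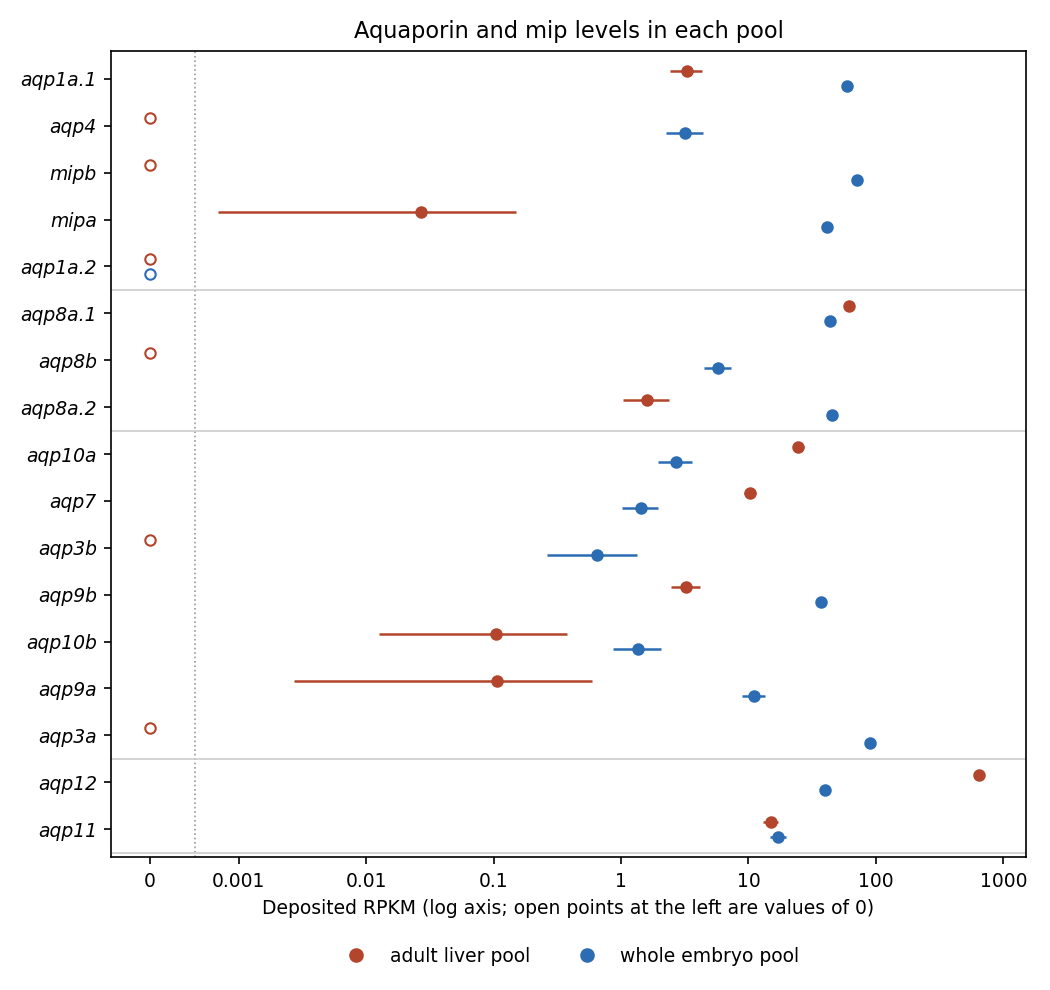
Deposited RPKM (horizontal log axis, with open points at the left edge for values of 0) of each aquaporin and mip gene in the adult liver pool (red) and the whole embryo pool (blue), grouped as water channels, aquaporin-8 genes, aquaglyceroporins and unorthodox members. Bars are exact 95% Poisson intervals, and the liver points spread from 0 to 648.5 while most embryo points lie between 1 and 100.

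Differences between the pools were read by a rule of size. A call required that the 95% interval of the CPM ratio stay at 4-fold or more over its whole width, with 10 or more counts in the higher pool. Measured genes were those with 10 or more counts in either pool. Of the 9 features named aqp, 8 were measured, of which 1 was higher in adult liver, 5 were higher in whole embryos and 2 were in neither. With the other names and the mip genes added, 15 of 17 were measured, with 3 higher in adult liver, 9 higher in whole embryos and 3 in neither. Among all 21750 measured features the rule called 3.35% higher in adult liver and 30.9% in whole embryos. Log2 ratios of liver over embryo, with counts of 0 set to 3, had a median of -3.87 for the 8 features named aqp. It was -3.92 for the 15, against -1.60 over all measured features. The median of -3.87 lies between the ratios of aqp9b and aqp4, and aqp4 had 0 liver counts, so it rests partly on the 3 counts. Scaling with trimmed-mean (TMM) factors or median-of-ratios size factors moved every log2 ratio toward the liver pool by 1.35 and 1.38. All 17 features kept the same call under both scalings, where all measured features were called at 8.06% and 15.8% (TMM) or 8.19% and 15.5% (size factors) for liver and embryo. Counts of called genes in the marker and related lists are to be read beside these shares of all measured features. In pools of whole tissue, fewer cells of a type and less RNA per cell cannot be told apart.

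**Figure D3:**
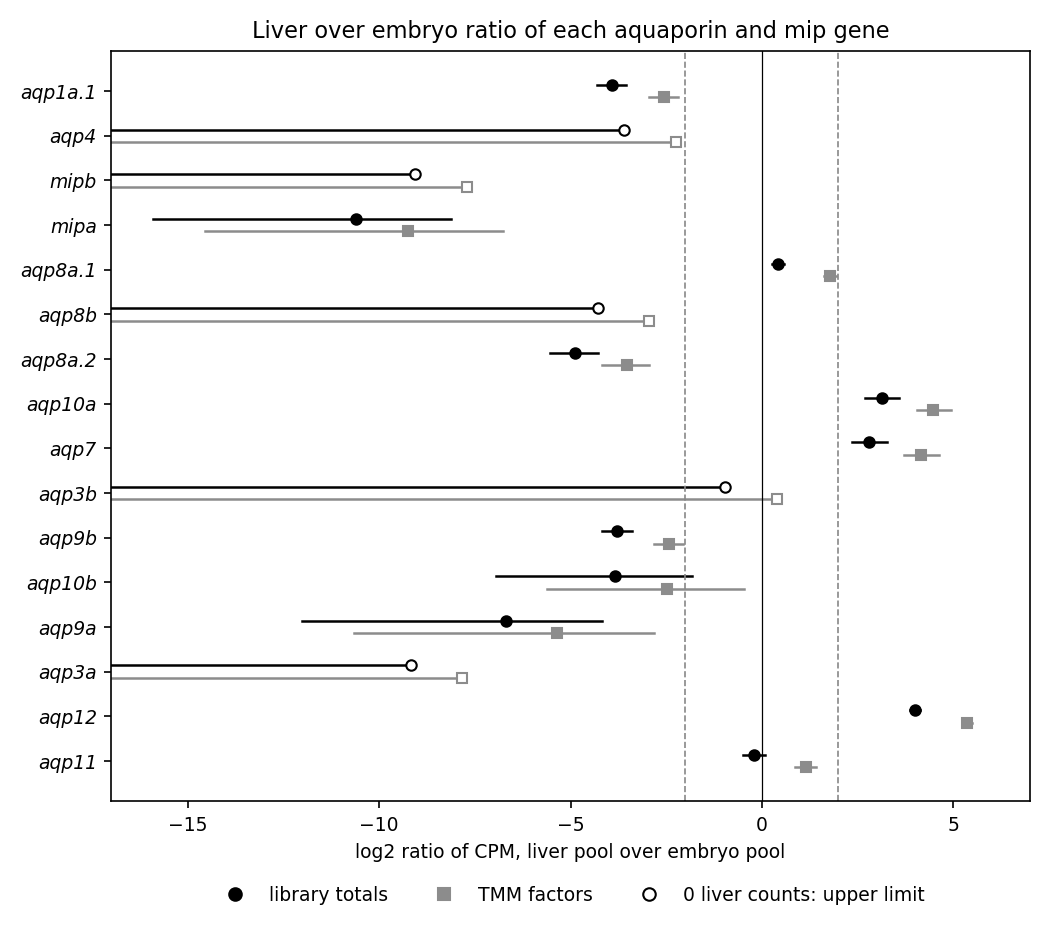
Log2 ratio of CPM, liver pool over embryo pool (horizontal axis), for each aquaporin and mip gene with any count, scaled by library totals (black circles) and by TMM factors (grey squares). Lines are exact 95% intervals, open symbols mark genes with 0 liver counts at the upper limit of their interval, and dashed lines stand at 4-fold. Only aqp12, aqp10a and aqp7 lie wholly to the right of the right dashed line under either scaling.

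Transcripts of aqp12 (zgc:92747 in the files) were the most abundant of the family in adult liver, with 8558 counts or 657 CPM in adult liver and 467 counts or 40.9 CPM in whole embryos. The liver pool was 16.1-fold higher (14.6 to 17.7), or 41.0-fold under TMM scaling. The signal lay on the spliced gene model: 99.6% of the liver reads were exonic, 973 crossed an exon-exon junction and 99.9% had 1 position in the genome. Markers of pancreatic acinar cells, the cells known for aquaporin 12 in mammals, were present in both pools. All 16 were measured and none was at 0, and they summed to 2107 CPM in adult liver and 6535 CPM in whole embryos. The rule called none of them higher in adult liver, 3 higher in whole embryos and 13 in neither, against 2, 2 and 12 under TMM scaling. Over all measured features 3.35% were higher in adult liver and 30.9% in whole embryos, or 8.06% and 15.8% under TMM scaling. The median log2 ratio was -1.52 for the acinar markers, beside -1.60 over all measured features. The most abundant were the trypsins prss59.1 (zgc:66382 in the files), with 6879 liver counts and 17619 embryo counts, and prss1 (try in the files), with 4525 liver counts and 10563 embryo counts. Chymotrypsin ctrb1 had 3453 liver counts and 9480 embryo counts. With library totals, aqp12 was higher in adult liver and the acinar marker sum was lower. Per 1000 acinar marker reads there were 312 aqp12 reads in adult liver and 6.26 in whole embryos. This quotient, which no scaling between the pools can move, was 49.8-fold higher (45.3 to 54.8) in adult liver. Per 1000 hepatocyte marker reads there were 11.1 aqp12 reads in adult liver and 21.7 in whole embryos. The part of acinar cells or hepatocytes in the aqp12 values was not tested. The other unorthodox gene, aqp11, a channel of the endoplasmic reticulum in mammals, had 212 liver counts and 215 embryo counts. Its ratio of 0.864 (0.711 to 1.05) had an interval that includes 1 with library totals, and it was 2.21 (1.82 to 2.68) under TMM scaling, a change of direction.

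Aquaglyceroporins split into genes higher in adult liver and genes higher in whole embryos. Higher in adult liver was aqp10a (aqp10 in the files), with 480 liver counts and 48 embryo counts, 8.76-fold (6.50 to 12.05). So was aqp7 (zgc:63700 in the files), the counterpart of the channel that releases glycerol from mammalian fat cells, with 365 liver counts and 46 embryo counts, 6.95-fold (5.11 to 9.67). By contrast aqp9b, 1 of 2 zebrafish counterparts of the glycerol channel of mammalian hepatocytes, had 61 liver counts and 735 embryo counts and was 13.8-fold lower (10.6 to 18.2) in adult liver. Only 80.1% of the embryo reads of aqp9b were exonic, against 96.7% in adult liver, and with exon reads alone the log2 ratio was -3.58 in place of -3.78. The other counterpart, aqp9a, had 1 liver count and 91 embryo counts and was 104-fold lower (18.2 to 4146) in adult liver. Under TMM scaling the ratios of liver over embryo were 22.4 for aqp10a, 17.7 for aqp7, 0.186 for aqp9b and 0.0246 for aqp9a. Taken against aqp9b within each pool, aqp10a had 7.87 counts per aqp9b count in adult liver and 0.0653 in whole embryos, a quotient 119-fold higher (79.7 to 183) in adult liver.

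The most abundant aquaglyceroporin of whole embryos was aqp3a (aqp3 in the files), counterpart of the aquaporin of mammalian skin and kidney. It had 0 liver counts and 1871 embryo counts, or 164 CPM. With 3 counts in place of 0 it was 712-fold lower in adult liver. Its 95% interval begins at 578-fold and overlaps that of aqp9a. Its paralog aqp3b (aqp3l in the files) had 0 liver counts and 8 embryo counts and was not measured. Markers of ionocytes and skin were higher in whole embryos for 11 of 12 genes, or 10 under TMM scaling. The shares of all measured features were 30.9% and 15.8%. These markers summed to 168 CPM in adult liver and 12627 CPM in whole embryos. The ionocyte factors foxi3a and foxi3b were at 0 in adult liver, whereas the keratin gene krt4 had 832 liver counts and 82763 embryo counts. The keratins krt5 and cyt1 had 19 and 15 liver counts, against 30453 and 22580 embryo counts. The part of these cells in the aqp3a difference was not tested. The paralog of aqp10a, aqp10b (si:dkey-204a24.5 in the files), had 2 liver counts and 25 embryo counts and was called in neither direction with a fold of 14.3 (3.56 to 124) lower in adult liver. Against aqp10b within a pool, aqp10a had 240.0 counts per count in adult liver and 1.92 in whole embryos, 123-fold higher (29.2 to 1101) in adult liver.

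Neighbouring aquaporin-8 genes differed 38.0-fold in RPKM in adult liver and by less than counting error in whole embryos. In the gene tables aqp8a.1 (aqp8a in the files) and aqp8a.2 (zgc:158752 in the files) lie 4047 bases apart with no feature between them. The first had 893 liver counts and 583 embryo counts, a ratio of 1.34 (1.21 to 1.49), which was 3.43 (3.08 to 3.81) under TMM scaling and called in neither direction with either. The second had 24 liver counts and 618 embryo counts and was 29.4-fold lower (19.6 to 46.2) in adult liver, or a ratio of 0.0869 under TMM scaling. In RPKM the pair stood at 61.1 and 1.61 in adult liver, and at 43.9 and 45.7 in whole embryos, where their intervals overlap. The quotient of aqp8a.1 to aqp8a.2 counts was 37.2 in adult liver and 0.943 in whole embryos, 39.4-fold higher (25.8 to 62.8) in adult liver. Reads with 1 position made up 100% of the reads of both genes in adult liver, and 99.5% (aqp8a.1) and 99.8% (aqp8a.2) in whole embryos, so few reads could be shared between them. The third gene, aqp8b, had 0 liver counts and 65 embryo counts. With 3 counts in place of 0 it was 24.7-fold lower in adult liver, with an interval that begins at 19.5-fold. Markers of the intestine, another site of aquaporin 8 in mammals, summed to 875 CPM in adult liver and 1670 CPM in whole embryos. Of 7 genes, 6 were higher in whole embryos, or 2 under TMM scaling, against 30.9% and 15.8% of all measured features. Most of the liver sum was apoa4b.1 (apoa4 in the files), with 10181 liver counts and 5907 embryo counts, and fabp6 was at 0 in adult liver. The fatty acid carrier fabp2 had 579 liver counts and 5260 embryo counts, and villin vil1 (vil1l in the files) 335 liver counts and 4585 embryo counts. Their part in these values was not tested.

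All 4 measured classical water channels were higher in whole embryos, also under TMM scaling, against 30.9% and 15.8% of all measured features. Of these, aqp4, mipa and mipb had 0 or 1 liver counts. They were measured through the embryo pool only, so the rule could not have called them higher in adult liver. Over all 5 water channel genes there were 64 liver counts and 3959 embryo counts. This sum was 70.6-fold lower (55.2 to 91.9) in adult liver, or a ratio of 0.0362 under TMM scaling. The lens genes mipa and mipb held 3082 of these embryo counts and 1 of the liver counts, so this fold is largely theirs. The channel of red blood cells and vessel walls, aqp1a.1 (zgc:85890 in the files), supplied 63 of the liver counts against 836 embryo counts. It was 15.1-fold lower (11.7 to 19.9) in adult liver, or a ratio of 0.169 under TMM scaling. Endothelial markers summed to 100.3 CPM in adult liver and 125 CPM in whole embryos, and none of 8 was called in either direction. Of all measured features, 3.35% were called higher in adult liver and 30.9% in whole embryos. With library totals the ratio was below 1 for 7 endothelial markers and above 1 for kdrl, a receptor of vessel walls. Their median log2 ratio was -0.66 with library totals and 0.69 under TMM scaling, a change of direction. Over all measured features these medians were -1.60 and -0.25. With 623 liver counts and 259 embryo counts, kdrl was called higher in adult liver under TMM scaling. The receptor gene kdr had 141 liver counts and 175 embryo counts. The transcription factor gene fli1a, with 139 liver counts and 405 embryo counts, was 3.33-fold lower (2.74 to 4.06) in adult liver, and clec14a, with 25 liver counts and 119 embryo counts, 5.43-fold lower (3.51 to 8.73). Per 1000 endothelial marker reads there were 48.2 aqp1a.1 reads in adult liver and 585 in whole embryos, a quotient 12.1-fold lower (9.27 to 16.1) in adult liver. Of these marker reads kdrl supplied 623 of 1306 in adult liver and 259 of 1428 in whole embryos. The size of the quotient therefore depends partly on that gene. Red blood cell markers summed to 211 CPM in adult liver and 659 CPM in whole embryos. Among these the embryonic globins hbae1.1, hbae3 and hbbe2 were at 0 in adult liver, and the adult globins hbaa1 and hbba1 (ba1 in the files) at 0 in whole embryos. Of 10 measured markers, 2 were higher in adult liver, 5 in whole embryos and 3 in neither, or 2, 4 and 4 under TMM scaling. Over all measured features the shares were 3.35% for liver and 30.9% for embryo, or 8.06% and 15.8% under TMM scaling. Per 1000 red blood cell marker reads there were 22.9 aqp1a.1 reads in adult liver and 111 in whole embryos. Of 2752 liver marker reads, hbba1 had 1536 and hbaa1 884. Of 7517 embryo marker reads, hbae1.1 had 1545, hbae3 2140 and hbbe2 1582. The red blood cell quotients therefore rest largely on different globin genes in each pool. The part of vessel cells or red blood cells in the aqp1a.1 values was not tested.

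The remaining water channels with any read were aqp4 and the lens genes mipa and mipb. The channel of mammalian astrocytes, aqp4, had 0 liver counts and 41 embryo counts. With 3 counts in place of 0 it was 15.6-fold lower in adult liver, with an interval that begins at 12.1-fold. All 8 glial markers were higher in whole embryos, 6 of them under TMM scaling, against 30.9% and 15.8% of all measured features. They summed to 99.5 CPM in adult liver and 2286 CPM in whole embryos. The glutamate carrier slc1a2b (slc1a2 in the files) had 9 liver counts and 11250 embryo counts, the astrocyte filament gene gfap 3 liver counts and 3621 embryo counts, and glutamine synthetase glula 1053 liver counts and 5964 embryo counts. The part of glial cells in the aqp4 values was not tested. At 41 counts, aqp4 was low in whole embryos as well, at 3.20 RPKM. The lens fibre channels were abundant there: mipa (mip1 in the files) had 1 liver count and 1358 embryo counts, and mipb (mip2 in the files) 0 liver counts and 1724 embryo counts. In adult liver mipa was 1550-fold lower (278 to 61259). With 3 counts in place of 0, mipb was 656-fold lower there, with an interval that begins at 533-fold. The lens list, which includes both genes, had 10 of 10 members higher in whole embryos, against 30.9% of all measured features. It summed to 0.922 CPM in adult liver and 3687 CPM in whole embryos. Its members cryba1b, cryba2a, bfsp2 and mipb were at 0 in adult liver, and its most abundant, crybb1, had 4 liver counts and 16149 embryo counts. Together mipa and mipb made up 3082 of the 8731 embryo counts of the 17 features, and 1 of the 10660 liver counts.

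Summed over all 17 features, the family had 819 CPM in adult liver and 765 CPM in whole embryos, a ratio of 1.07 (1.04 to 1.101), or 2.73 under TMM scaling. This closeness rested on aqp12. Without it the sum was 161 CPM in adult liver and 724 CPM in whole embryos, 4.49-fold lower (4.28 to 4.71) in adult liver, or a ratio of 0.569 under TMM scaling. The 9 features named aqp alone, which leave out aqp12, gave 126 CPM in adult liver and 321 CPM in whole embryos, a ratio of 0.395 (0.372 to 0.418) that was 1.01 under TMM scaling.

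Genes that release and use glycerol were set beside the aquaglyceroporins. Of 13 measured genes of glycerol metabolism, 2 were higher in adult liver, 3 in whole embryos and 8 in neither. Over all measured features 3.35% were higher in adult liver and 30.9% in whole embryos. The median log2 ratio of the list was -0.44, beside -1.60 over all measured features. TMM scaling gave 3, 0 and 10 genes and a median of 0.91, beside -0.25 over all measured features. Glycerol-3-phosphate dehydrogenase gpd1b had 7287 liver counts and 651 embryo counts, 9.81-fold higher (9.05 to 10.6) in adult liver, and the aldehyde reductase akr1a1a was 6.75-fold higher (5.28 to 8.76). The paralog gpd1c (gpd1 in the files) had 503 liver counts and 481 embryo counts, and gpd1a 24 liver counts and 143 embryo counts. The most abundant gene of the list in whole embryos was aldh7a1, with 2251 liver counts and 2672 embryo counts. Aldose reductase akr1b1, which also makes the osmolyte sorbitol, had 531 liver counts and 701 embryo counts. The genes gpd1c and gpd1a were chosen for naming after their values were seen. Of the 18 genes written for this list, 14 were matched to a feature. Glycerol kinase, the entry step, was written for the list but not matched, so it has no value here.

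Of 15 genes written for a list of lipases and lipid droplets, 9 were matched to a feature. The genes pnpla2, abhd5a and lpl were among those not matched. Of the 8 measured genes, 2 were higher in adult liver and 6 in neither, with library totals and under TMM scaling. Over all measured features 3.35% were higher in adult liver and 30.9% in whole embryos, or 8.06% and 15.8% under TMM scaling. With library totals the median log2 ratio of the list was 0.26, beside -1.60 over all measured features. The hepatic lipase gene lipca (lipc in the files) had 4923 liver counts and 8 embryo counts, 539-fold higher (273 to 1250) in adult liver. The carboxylesterase ces3 was 14.5-fold higher (13.4 to 15.7) in adult liver. By contrast mgll, which frees glycerol from monoglycerides, had 511 liver counts and 489 embryo counts and a ratio of 0.916 (0.807 to 1.04).

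Ammonia channels of the Rh family were, like aqp3a, mipa and mipb, nearly absent from adult liver. All 5 measured members were higher in whole embryos, 4 of them under TMM scaling, against 30.9% and 15.8% of all measured features. They summed to 1.69 CPM in adult liver and 704 CPM in whole embryos. The most abundant, rhbg, had 2 liver counts and 4089 embryo counts, 2333-fold lower (646 to 19273) in adult liver. Next were rhcga (zgc:162132 in the files), with 0 liver counts and 1802 embryo counts, and the red blood cell member rhag, with 19 liver counts and 1259 embryo counts. Of 12 measured genes of the response to osmotic stress, none was higher in adult liver, 1 was higher in whole embryos and 11 were in neither. Over all measured features 3.35% were higher in adult liver and 30.9% in whole embryos. The 1 gene of the list higher in whole embryos was the kinase oxsr1a, with 27 liver counts and 149 embryo counts. Its call was lost under TMM scaling. The paralog oxsr1b had 340 liver counts and 470 embryo counts. The GABA and taurine carrier slc6a13, with 1295 liver counts and 249 embryo counts, was called higher in adult liver under TMM scaling and not with library totals. The median log2 ratio of the osmotic list was -1.70, beside -1.60 over all measured features.

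**Figure D4:**
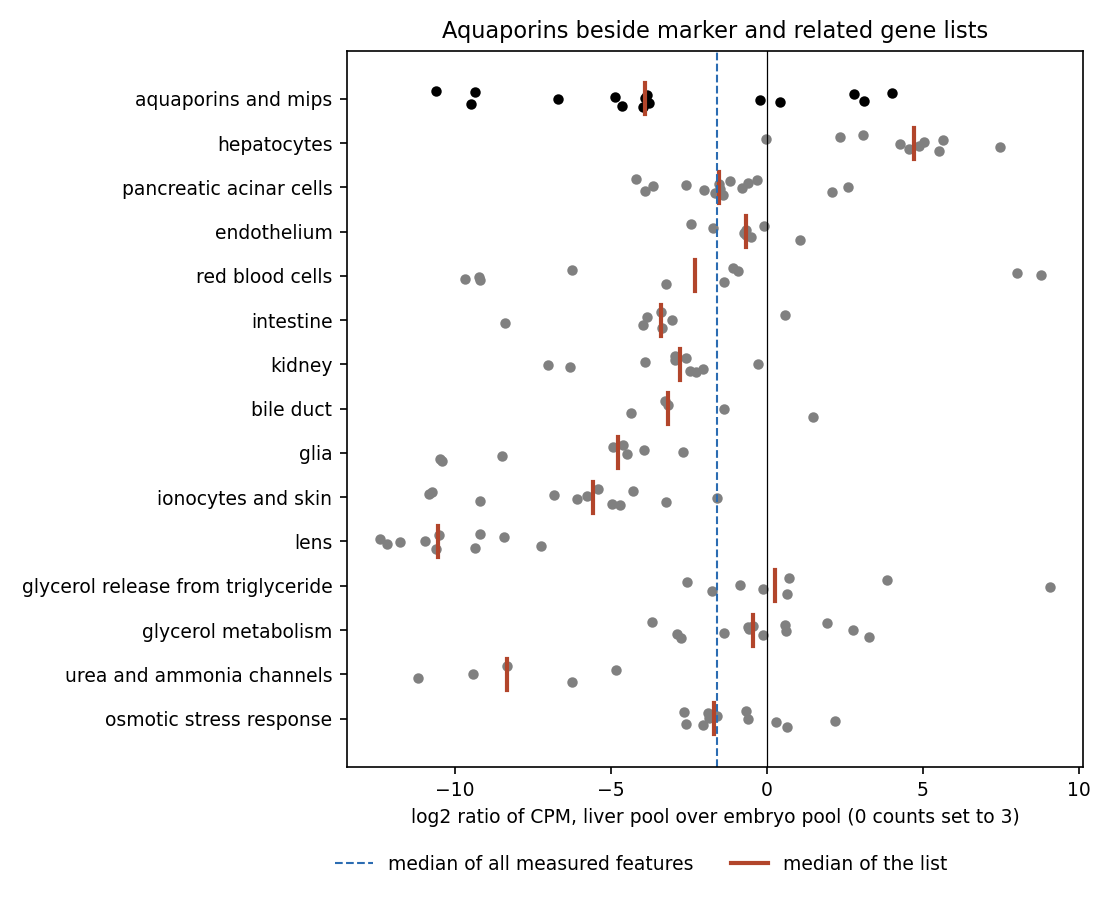
Log2 ratio of CPM, liver pool over embryo pool (horizontal axis, counts of 0 set to 3), of each measured aquaporin and mip gene (black) and of each measured gene of the marker and related lists (grey). Red bars are list medians and the dashed blue line is the median over all measured features, -1.60. The aquaporins run from -10.60 (mipa) to 4.01 (aqp12), and the list genes from -12.39 (the lens crystallin crygm2d1) to 9.07 (lipca).

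The reads of the family were mapped with little ambiguity. Reads with 1 position were 99.8% of its liver reads and 99.5% of its embryo reads, against 80.2% and 85.1% over all features of the liver and embryo pools. The exonic share of the family was 98.3% for liver reads and 96.2% for embryo reads, against 90.1% and 85.6% over all features. The lowest exonic share among genes with at least 10 counts was that of aqp1a.1 in adult liver, 79.4% of 63 reads. Junction-crossing reads were 11.7% of the family's exonic liver reads and 8.76% of its exonic embryo reads, and 23.4% and 22.0% over all features. Within the family the lowest junction shares in whole embryos among genes with several exons and at least 10 counts were those of mipa, 3.85%, and mipb, 3.89%. Of the 17 models that of mipa had the most exonic bases, 2844.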

How the data were processed

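RNA sequencing read counts of 1 liver pool and 1 embryo pool were used. Per the file headers, the deposited tables hold whole-number counts for each gene, as unique reads (1 position) and as total reads, with separate columns for exonic, junction-crossing and intron-exon reads. The authors' deposited RPKM came in 2 identical columns and matched exonic reads per exon base and per library read, on the usual scale of that unit, within 0.088 reads for liver. The deposited median coverage, a signal value per gene, was not used in the comparisons. The aligner, build and annotation were not given in the sources used here, and coordinates were left out.

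CPM were total gene reads over the library total. Ratios carry exact 95% Clopper-Pearson intervals of the conditional binomial, levels exact Poisson intervals, and within-pool quotients exact conditional intervals of the odds ratio (scipy 1.17.1). Log2 ratios and folds of genes with 0 counts in 1 pool use 3 counts per library in place of 0. The intervals beside them use the count of 0 itself. Intervals are too narrow if PCR copies or mates were counted separately, which the tables do not show. TMM factors came from edgeR 4.0.16 and size factors from DESeq2 1.42.0, as alternatives.

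Names only were taken from RefSeq's genes of assembly GRCz12tu, to which 18978 of 27098 features could be matched. The gene lists omit 407 features with several positions. Genes that could not be matched to a single feature were also left out of the lists. All members were named, and of each list the 3 most abundant measured genes and up to 3 called against the list median; further list genes, such as clec14a and foxi3a, were chosen after their values were seen. The members and lists were chosen with earlier results of these data known. Beside the marker lists, those for kidney and bile duct had 8 of 10 and 2 of 5 measured genes higher in whole embryos and none in adult liver. Under TMM scaling these were 3 and 1, and 1 bile duct gene was higher in adult liver. Of all measured features, 30.9% were higher in whole embryos, or 15.8% under TMM scaling. In liver and embryo counts, the kidney genes trpm7, cdh17 and lrp2a had 1191 and 1281, 532 and 2269, and 69 and 898. The bile duct genes krt18, anxa4 and sox9b had 10621 and 3303, 105 and 1870, and 144 and 325.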

Additional observations from a re-analysis of the deposited data

How the results depend on the processing

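No paired analysis was possible because each source had 1 library, and for the same reason no replicate could be left out. The count of features named aqp that were higher in adult liver was 1 and in whole embryos 5 under TMM factors, size factors, unique reads, exon reads, a 2-fold rule and no count minimum; with a minimum of 50 counts it was 1 and 4. With the features under other names and the mip genes included, a choice made after seeing the data, these were 3 and 9. The median log2 ratio of -3.87 was -2.52 with TMM factors and -2.49 with size factors, by the construction of those scalings, and between -3.92 and -3.74 otherwise. The summed CPM of features named aqp was 157 in adult liver and 375 in whole embryos with unique reads, and 349.7 in whole embryos with exon reads, in place of 126 and 321; unique and exon totals of the libraries are smaller. Both scalings raised every ratio by 1 common amount, and of the 16 features with any count aqp11 changed direction. Read counts per length of the whole gene region, introns included, gave aqp12 70.4% of the family in adult liver and 2.35% in whole embryos, and 20 of 27 such shares left their counting interval. Depth limits aqp1a.2, aqp3b, aqp10b and the liver values of aqp3a, aqp4, aqp8b, aqp9a, mipa and mipb. These genes had 8 counts or fewer in at least 1 pool.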
